A study of Homo sapiens with 18 samples.

Results

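The aminoacyl-tRNA synthetases are the enzymes that join each amino acid to its transfer RNA. Transcripts were assigned to this family by gene symbol: a 1-letter amino acid code followed by ARS, with or without a final 1 or 2, together with EPRS, FARSA, FARSB and the symbols EARS2, FARS2 and PARS2. The rule found 37 genes in each of the 2 deposited tables, among 21391 features of the inhibitor table and 18350 features of the siRNA table. Of these, 20 were enzymes of the cytosol and 17, with symbols ending in 2, were enzymes of the mitochondrion. The rule itself reads gene symbols only, but the family was chosen with earlier results of these data known. The cells were LNCaP, an androgen-responsive human prostate cancer line kept in RPMI medium with fetal bovine serum, and poly-adenosine-diphosphate-ribose polymerases, the PARP enzymes, were targeted in 2 ways. In the inhibitor arm, a 24 h exposure to the DMSO vehicle was compared with 10 µM of 1 of 3 compounds: UPF1069, olaparib and veliparib. In the siRNA arm, RNA was taken 72 h after transfection of a negative control (siNC), of either of 2 siRNAs labelled for PARP1 (siPARP1-A and siPARP1-B) or of either of 2 labelled for PARP2 (siPARP2-A and siPARP2-B). Each of the 9 groups had 2 libraries, which the submitters call biological duplicates without saying how the cultures were kept apart. The p-values therefore rest on the spread between such duplicates only. That spread was estimated over all groups of an arm and drawn toward that of other features of similar level. All groups share the 1 cell line, and no untransfected culture was among the groups.

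Each synthetase recognises its amino acid and the matching tRNAs, and the charged tRNAs feed the ribosome. Most amino acids have a nuclear gene for a cytosolic enzyme and another for an enzyme imported into mitochondria, although the KARS and GARS genes encode both forms. Several cytosolic enzymes (DARS, EPRS, IARS, KARS, LARS, MARS, QARS and RARS) are held in the multisynthetase complex by the scaffold proteins AIMP1, AIMP2 and EEF1E1. Many cytosolic synthetase genes, and few mitochondrial ones, belong to the genes that the transcription factor ATF4 raises when amino acids are short or the endoplasmic reticulum is stressed. WARS, the tryptophan enzyme, is also raised by interferon.

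The libraries held 26.4 to 35.7 M reads counted to genes in the inhibitor arm and 15.5 to 18.6 M in the siRNA arm. A count of 3 reads corresponded to 0.0841 to 0.113 and 0.169 to 0.207 units, far below all synthetases except SARS2, the mitochondrial serine enzyme, which lay between 0.14 and 0.67 units in the siRNA libraries, was not tested there and shares 56.98% of its exon bases with other genes. All 37 synthetases were tested in the inhibitor arm and 36 in the siRNA arm. PARP1 transcripts read 452 and 479 with siNC, 4.78 and 5.67 with siPARP1-A and 8.99 and 9.05 with siPARP1-B. PARP2 transcripts read 28.96 and 25.8 with siNC, 3.06 and 2.56 with siPARP2-A and 1.78 and 1.01 with siPARP2-B, so each siRNA lowered its labelled target. With siPARP2-B, PARP1 was lower too, at 160.5 and 145, a log2 difference of -1.60 (SE 0.073, adjusted p = 7.66e-16). Smaller falls of the other target passed in limma with the other siRNAs. PARP2 changed by -0.34 (adjusted p = 0.0417) with siPARP1-A and by -0.51 (adjusted p = 0.00429) with siPARP1-B. PARP1 changed by -0.21 (adjusted p = 0.0194) with siPARP2-A. All 7 luminal prostate markers were present in every library, with summed levels of 2928 to 4724 units in the inhibitor arm and 2391 to 6346 in the siRNA arm. Basal and immune marker sums stayed under 1 unit and stromal marker sums under 20. These sums rest on few genes, as each arm held 1 of 3 basal and 3 of 4 stromal markers. Of 4 immune markers, 2 were held in the inhibitor arm and 1 in the siRNA arm. The luminal sum was 2928 and 2958 with olaparib against 4649 and 4724 with DMSO, where 4 of the 7 fell and 3 rose, while 2 and 3 fell and 2 and 2 rose with UPF1069 and veliparib. Stromal markers summed to 2.08 and 2.87 with siNC and 8.03 and 7.78 with siPARP2-B, where both of those tested rose. With siPARP1-A they summed to 4.29 and 4.14 and 1 rose, with siPARP1-B 1 rose and 1 fell, with siPARP2-A neither passed, and 1 fell with olaparib and with veliparib. Of the 7 luminal markers, 7 fell with siPARP1-A, 4 fell and 1 rose with siPARP1-B, and 7 fell with each PARP2 siRNA, and the part of luminal and stromal markers in the synthetase values was not tested. Structural RNAs, such as 7SK and small nuclear RNAs, summed to 125 and 122 units with DMSO, 182 and 236 with UPF1069, 257 and 132 with olaparib and 778 and 846 with veliparib. Of the 5 tested, 4, 5 and 5 rose with the 3 compounds, with median log2 differences of 0.73, 0.66 and 1.49, and their part in the results below was not tested. Of all features tested, 10.3%, 25.8% and 17.2% rose and 14.0%, 26.8% and 23.2% fell with UPF1069, olaparib and veliparib. With siPARP1-A, siPARP1-B, siPARP2-A and siPARP2-B, 25.5%, 16.4%, 24.5% and 30.9% rose and 28.9%, 23.9%, 24.9% and 35.2% fell. The marker and structural RNA counts are to be read against these shares. In bulk RNA, fewer cells expressing a gene and less RNA per cell cannot be told apart.

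Under control conditions the cytosolic enzymes were the more abundant set. Levels per kilobase of exon had a median of 60.2 CPM (reads scaled to a common library size) per kb for cytosolic and 12.4 for mitochondrial enzymes with DMSO, and 48.6 and 12.3 normalised units, a like scale, per kb with siNC. AARS, the alanine enzyme, led the DMSO libraries at 145 and 144 CPM per kb, ahead of FARSA, the alpha subunit of the phenylalanine enzyme, at 119 and 118. NARS, the asparagine enzyme, led the siNC libraries at 135 and 130 per kb, with KARS next at 114 and 110. EPRS, a single protein that charges both glutamate and proline, stood close to KARS at 116 and 107, and these neighbours in the order overlapped in their libraries. The mitochondrial isoleucine enzyme IARS2 was the exception among the mitochondrial set, at 70.3 and 71.6 per kb with DMSO and 80.8 and 74.5 with siNC, above most cytosolic enzymes. CARS, the cysteine enzyme, was the lowest of the cytosolic set in both arms, at 9.80 and 9.96 and at 5.21 and 5.61 per kb. The 2 tables were normalised separately, so levels are ordered only within each. The exon length used joins all annotated transcripts of a gene, and the order depends on it. It is 4065 bases for KARS and 4089 for NARS, against 2421 and 3099 in their longest transcripts. An order by another length is not given.

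Promoter letters are shown because the cytosolic synthetases that moved most included several genes with the C/EBP-ATF composite letters. The display was thus chosen with the changes known, and a link between letters and changes was not tested. The motif searched was TGATGNAA on either strand, the core of the amino acid response element. RefSeq windows of 300 bases (250 before and 50 from the start on, build GRCh38.p14) were held for 30 of the 37 synthetases. The letters occurred in 7 of 16 cytosolic synthetases with a window (43.8%), in 1 of 14 mitochondrial ones (7.14%) and in 1217 of all 27305 genes with a window (4.46%). Split further, all 7 belonged to the 10 genes with a window that are commonly listed as ATF4 targets (70.0%), and none to the other 6 cytosolic genes. Such lists may themselves rest on these letters, so the split is not independent evidence. The mitochondrial match was in YARS2, the tyrosine enzyme. Among the cytosolic genes, the AARS match lies farthest from the start, at bases -187 to -180. FARSA and WARS, which also moved much, have windows without a match, and LARS and YARS have no window. NARS and TARS carry the letters but fell with siPARP1-A. The lines below give the 7 cytosolic matches with up to 40 flanking bases, 5′ to 3′ on the gene's strand, with the matched letters in capitals.
AARS: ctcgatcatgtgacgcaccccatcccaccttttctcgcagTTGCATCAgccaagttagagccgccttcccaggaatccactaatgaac
CARS: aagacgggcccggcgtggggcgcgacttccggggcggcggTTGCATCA
GARS: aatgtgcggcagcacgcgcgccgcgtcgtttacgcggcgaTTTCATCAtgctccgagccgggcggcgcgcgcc
IARS: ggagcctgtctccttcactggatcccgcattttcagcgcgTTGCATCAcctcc
MARS: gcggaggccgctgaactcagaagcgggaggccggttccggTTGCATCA
NARS: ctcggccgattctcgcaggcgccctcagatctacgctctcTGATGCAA
TARS: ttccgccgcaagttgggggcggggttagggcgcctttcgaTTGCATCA
These stretches lie at chr16:70289646-70289733 (minus strand), chr11:3057418-3057465 (minus strand), chr7:30594805-30594877 (plus strand), chr9:92293698-92293750 (minus strand), chr12:57488024-57488071 (plus strand), chr18:57621815-57621862 (minus strand) and chr5:33440927-33440974 (plus strand). A match describes letters only and says nothing of occupancy.

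With siPARP1-B, siPARP2-A and siPARP2-B, cytosolic synthetase transcripts were mostly higher than with siNC, and mitochondrial ones moved in both directions. With siPARP1-A both sets moved in both directions, and both medians lay above that of all features. Of the 20 cytosolic enzymes, 9 rose and 4 fell with siPARP1-A, 14 rose and 0 fell with siPARP1-B, 18 rose and 0 fell with siPARP2-A, and 16 rose and 2 fell with siPARP2-B. A transcript was counted as risen or fallen where limma's adjusted p was below 0.05 over all features tested. The shares of all features that rose were 25.5%, 16.4%, 24.5% and 30.9% in the same order, and the shares that fell were 28.9%, 23.9%, 24.9% and 35.2%. Calls in either direction covered 54.4%, 40.4%, 49.4% and 66.1% of all features. Since calls were this common, each count below, of synthetases and of the other lists, is read against these shares. The 0 falls with siPARP1-B and with siPARP2-A were also 0 at an unadjusted p below 0.05, with edgeR and with DESeq2. Of the 16 mitochondrial enzymes tested, 6, 2, 5 and 6 rose and 2, 4, 3 and 4 fell. The median log2 difference of the cytosolic set was 0.12, 0.35, 0.37 and 0.32, that of the mitochondrial set 0.15, -0.029, 0.081 and -0.014, and that of all features lay between -0.031 and -0.0018. The difference between the sets themselves was not tested. The 4 comparisons share the siNC libraries. Leaving out either siPARP1-A library changed the 8 mitochondrial calls with that siRNA to 4 (without replicate 1) or 5 (without replicate 2), and leaving out either siPARP2-A library changed its 8 to 5.

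**Figure D1:**
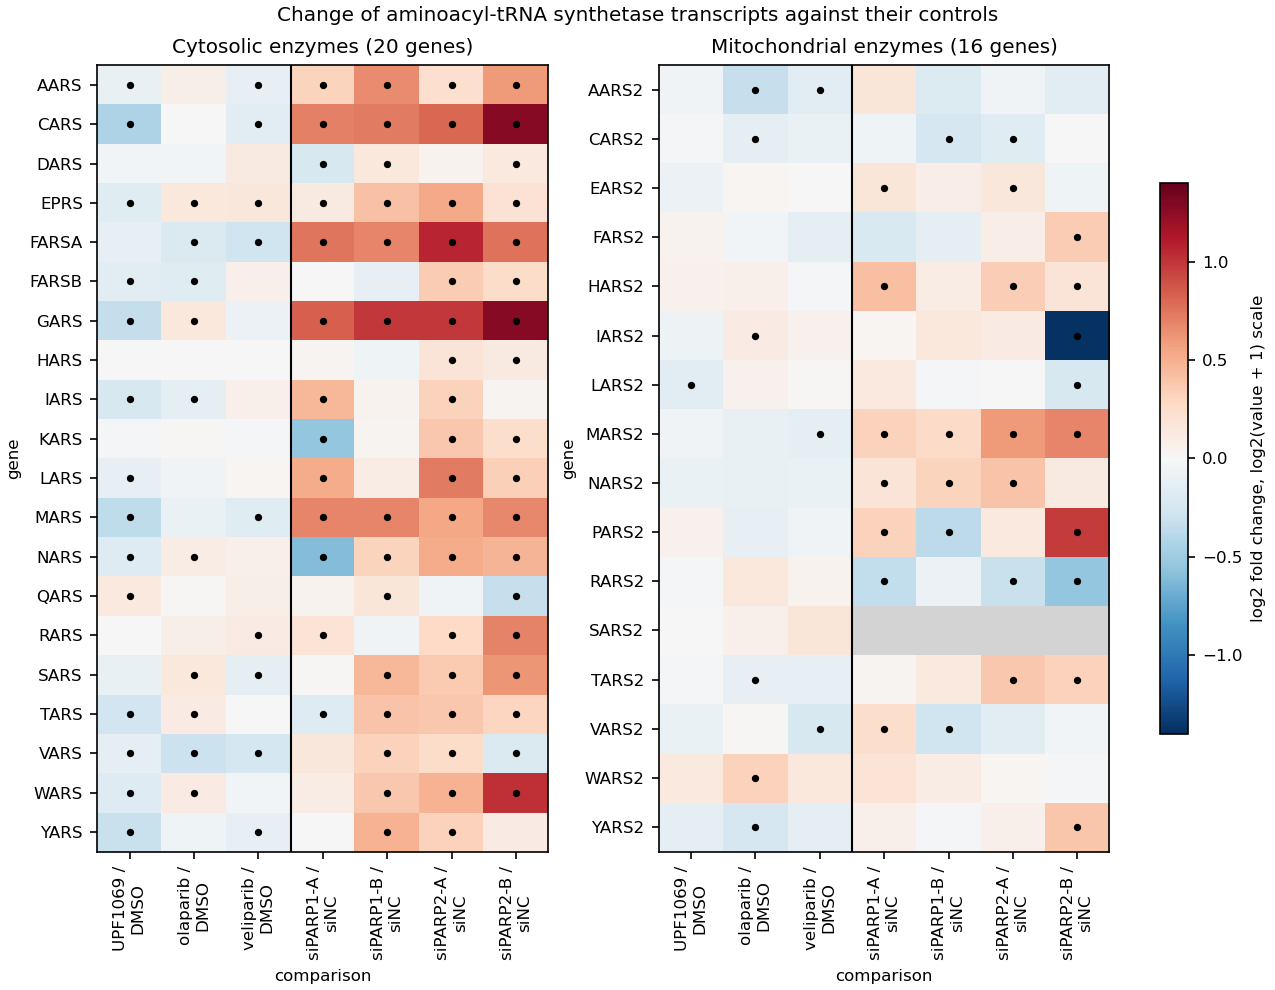
Log2 difference of 36 synthetase transcripts (rows) from its control (columns), cytosolic enzymes on the left and mitochondrial enzymes on the right, on the log2(value + 1) scale; dots mark an adjusted p below 0.05 and grey marks SARS2, which was not tested in the siRNA arm. Red cells fill most of the cytosolic siRNA columns, with GARS and CARS darkest at 1.28 and 1.27 under siPARP2-B, while IARS2 at -1.38 is the darkest blue cell.

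The summed level of the 20 cytosolic transcripts gave the same picture in units. It was 5585 and 5467 normalised units in the siNC libraries, 6087 and 5914 with siPARP1-A, 6944 and 6976 with siPARP1-B, 7370 and 7559.99 with siPARP2-A, and 7349 and 7397 with siPARP2-B. Every knockdown library therefore lay above both siNC libraries. The 17 mitochondrial transcripts summed to 1107 and 1104 with siNC and ranged from 1115 to 1192 with the first 3 siRNAs, but to 933 and 908 with siPARP2-B, below both siNC libraries. That lower sum came from IARS2: without this gene the sums were 771 and 794 with siNC and 804 and 789.7 with siPARP2-B, where 6 mitochondrial enzymes rose and 4 fell.

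Single values in parentheses below are log2 differences from the control on the log2(value + 1) scale, and SE is the standard error. Statements that libraries do not overlap describe genes named for their change. The share of all features without overlap is not given. GARS, the glycine enzyme (ENSG00000106105, chromosome 7, 30594681 to 30634033 on the plus strand, GRCh38), had the largest rise with siPARP1-A, siPARP1-B and siPARP2-B. It read 219 and 208 with siNC, 396 and 368 with siPARP1-A, 419.6 and 431 with siPARP1-B, 413 and 439.8 with siPARP2-A and 502 and 536 with siPARP2-B. All 8 knockdown libraries were above both controls. The log2 differences were 0.84 (SE 0.058, adjusted p = 7.02e-12), 0.99 (SE 0.058, adjusted p = 1.1e-12), 0.99 (SE 0.058, adjusted p = 5.62e-13) and 1.28 (SE 0.058, adjusted p = 6.41e-16), or 1.79-fold to 2.43-fold on the scale of the value plus 1. CARS (ENSG00000110619, chromosome 11, 3000922 to 3057613 on the minus strand) followed the same course from a lower level, at 52.3 and 56.3 with siNC, 90.3 and 87.9 with siPARP1-A, 91.5 and 89.8 with siPARP1-B, 93.03 and 97.3 with siPARP2-A and 131 and 133 with siPARP2-B. CARS rose by 1.27 (SE 0.062, adjusted p = 2.76e-15) with siPARP2-B and by 0.71 to 0.80 with the other 3 siRNAs, and siPARP2-B exceeded siPARP2-A by 0.47 (SE 0.062, adjusted p = 3.2e-07). Both genes carry the letters shown above, in CARS running up to base 5 and in GARS ahead of the start.

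MARS, which charges methionine for both initiation and elongation, rose by a similar amount with each siRNA. Its libraries read 159 and 167 with siNC against 276 and 249 with siPARP1-A, 264 and 259 with siPARP1-B, 233 and 241 with siPARP2-A and 259.9 and 263 with siPARP2-B, and its log2 differences were 0.68, 0.68, 0.54 and 0.68. The exons of MARS share 13.3% of their bases with other genes, among them DDIT3 on the other strand, and whether reads were counted by strand is not given in the sources used here. AARS rose by 0.31, 0.66, 0.23 and 0.59, from 363 and 397 with siNC to 607 and 595 with siPARP1-B. EPRS rose by 0.13, 0.41, 0.53 and 0.20, from 631 and 584 to 879.7 and 873 with siPARP2-A. These 2 genes and MARS thus rose with both siRNAs of either target, as did GARS, CARS and FARSA. The EPRS rise with siPARP1-A was the least firm of these: it did not pass without any of 9 of the 10 libraries left out in turn (all but siNC replicate 1), with only the groups compared, with no filter or with the replicate block, and it was 0.20 with GC content and length corrected. LARS, the leucine enzyme, rose with siPARP2-A from 272 and 249 to 434 and 428, a log2 difference of 0.72 (SE 0.056, adjusted p = 1.06e-10), and by 0.51 with siPARP1-A and 0.33 with siPARP2-B. With siPARP1-B its difference was 0.10 (adjusted p = 0.14). IARS, the isoleucine enzyme, read 484 and 458 with siNC and rose with siPARP1-A (0.46) and siPARP2-A (0.32), with differences of 0.054 (adjusted p = 0.47) and 0.038 (adjusted p = 0.567) for the second siRNA of each target.

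Read as a group, the 12 cytosolic genes commonly listed as ATF4 targets (AARS, CARS, EPRS, GARS, IARS, LARS, MARS, NARS, SARS, TARS, WARS and YARS) had 7 rises and 2 falls with siPARP1-A, 10 and 0 with siPARP1-B, 12 and 0 with siPARP2-A, and 10 and 0 with siPARP2-B. Their median log2 differences were 0.22, 0.44, 0.50 and 0.53. The other 8 cytosolic genes had medians of 0.044, 0.093, 0.27 and 0.19, with 2, 4, 6 and 6 rises and 2, 0, 0 and 2 falls. The list is from general knowledge, and the difference between the 12 and the 8 was not tested. SARS, the serine enzyme, rose by 0.47, 0.37 and 0.61 with siPARP1-B, siPARP2-A and siPARP2-B, and its siPARP1-A value was 0.018 (adjusted p = 0.791). YARS, the tyrosine enzyme, rose by 0.49 with siPARP1-B and 0.32 with siPARP2-A, with 0.0030 (adjusted p = 0.967) and 0.12 (adjusted p = 0.0629) for the others.

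**Figure D2:**
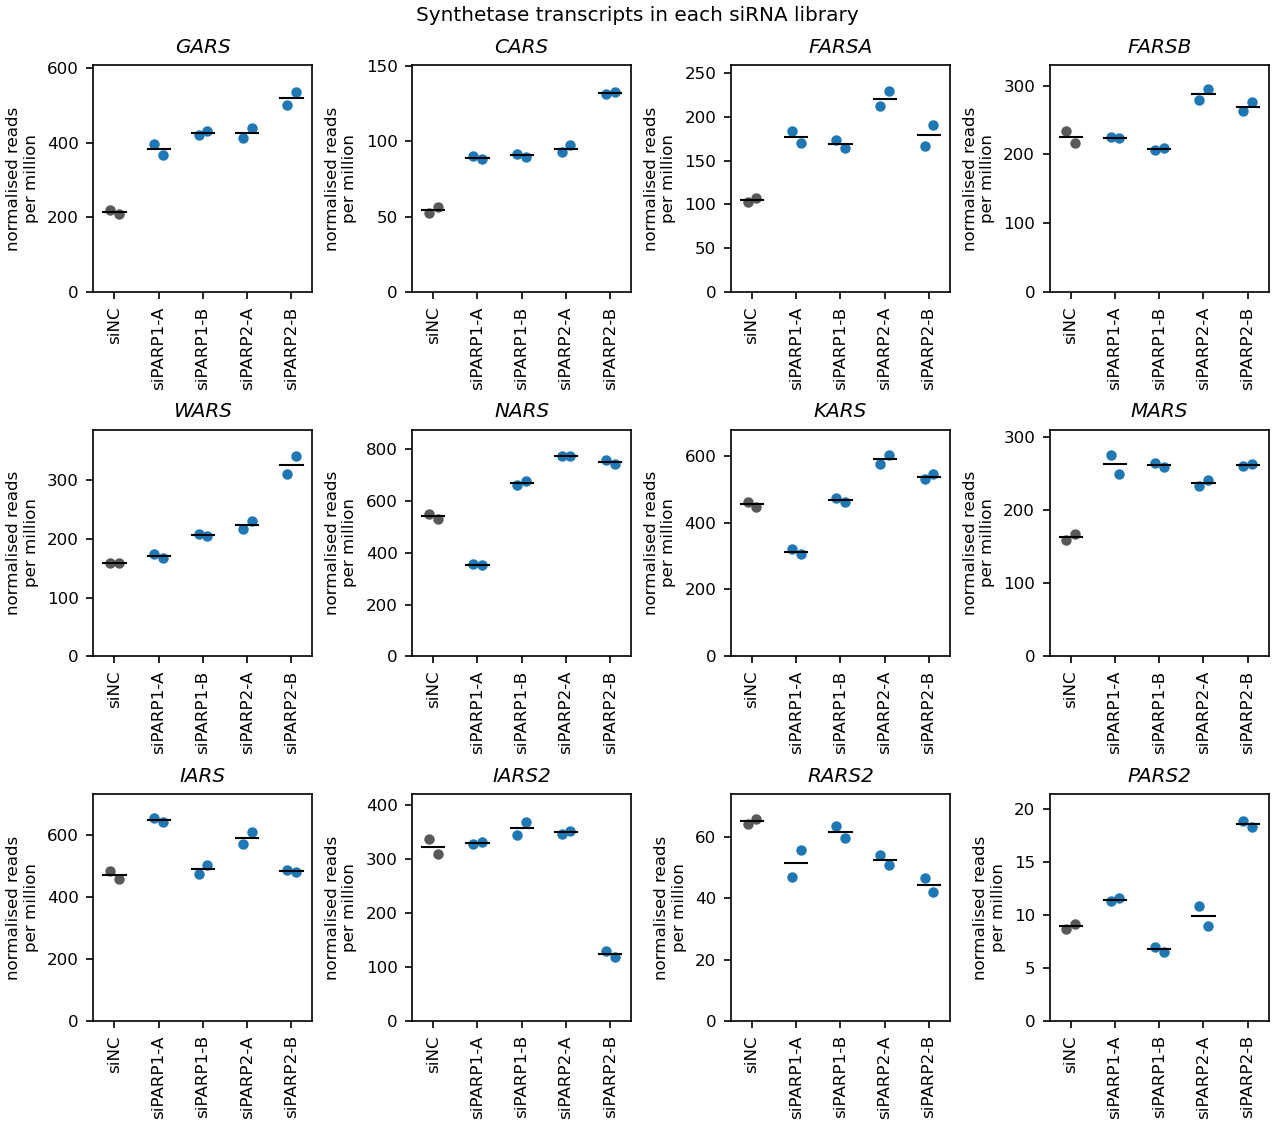
Normalised read level of 12 synthetase transcripts in each of the 10 siRNA libraries; points are libraries, bars are the means of 2, siNC is grey and the PARP siRNAs blue. GARS, CARS, FARSA and MARS sit above siNC in every knockdown library, NARS and KARS are lowest with siPARP1-A, and IARS2 is lowest with siPARP2-B.

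Of the subunits of the phenylalanine enzyme, FARSA passed the threshold with every siRNA and FARSB only with those for PARP2. FARSA (ENSG00000179115, chromosome 19, 12922479 to 12934037 on the minus strand), the catalytic alpha subunit, read 102 and 107 with siNC against 184 and 171 with siPARP1-A, 173 and 164 with siPARP1-B, 212 and 229 with siPARP2-A and 167 and 191 with siPARP2-B. Its log2 differences were 0.75 (SE 0.066, adjusted p = 5.68e-10), 0.68 (SE 0.066, adjusted p = 9.82e-09), 1.07 (SE 0.066, adjusted p = 1.74e-12) and 0.76 (SE 0.066, adjusted p = 2.14e-10), and no knockdown library overlapped the controls. FARSB, the beta subunit with which it forms the working tetramer, read 235 and 216 with siNC against 225 and 225 with siPARP1-A, 207 and 209 with siPARP1-B, 279.8 and 296 with siPARP2-A and 264 and 276 with siPARP2-B. FARSB rose with the PARP2 siRNAs, by 0.35 and 0.26, while its values with the PARP1 siRNAs were -0.0038 (adjusted p = 0.96) and -0.11 (adjusted p = 0.115). The mean of the PARP2 siRNAs exceeded that of the PARP1 siRNAs by 0.36 (SE 0.040, adjusted p = 1.94e-08) for FARSB and 0.20 (SE 0.046, adjusted p = 0.000684) for FARSA. For FARSA only the siPARP2-A libraries lay above all PARP1 siRNA libraries, and those of siPARP2-B overlapped both PARP1 siRNAs. The difference in change between the subunits was not tested.

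NARS and KARS went against the cytosolic set with siPARP1-A. NARS read 551 and 532 with siNC and 356 and 353 with siPARP1-A, a fall (-0.61, SE 0.052, adjusted p = 3.71e-10), but 663 and 677 with siPARP1-B, 774 and 775 with siPARP2-A and 759.7 and 742 with siPARP2-B, where it rose by 0.31, 0.52 and 0.47. KARS, the lysine enzyme, read 462 and 446 with siNC and 319.7 and 305 with siPARP1-A (-0.54, SE 0.054, adjusted p = 5.91e-09), against 473 and 463 with siPARP1-B (0.043, adjusted p = 0.562). With the PARP2 siRNAs, KARS rose to 576 and 601 with siPARP2-A and 529 and 546 with siPARP2-B. TARS, the threonine enzyme, fell by 0.18 and DARS, the aspartate enzyme, fell by 0.23 on the log2 scale with siPARP1-A, while TARS rose by 0.40 and DARS by 0.14 with siPARP1-B. The falls of NARS, KARS, TARS and DARS were the 4 cytosolic falls with siPARP1-A. The DARS rise with siPARP1-B did not pass without siNC replicate 2 (0.10), without either siPARP1-B library, without any siPARP1-A or siPARP2-A library, with no filter, with only the groups compared or with the replicate block. The TARS fall was -0.11 with GC content and length corrected.

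WARS rose most with siPARP2-B. It read 159 and 159 with siNC, 175 and 167 with siPARP1-A, 208 and 205 with siPARP1-B, 217 and 231 with siPARP2-A and 310.1 and 342 with siPARP2-B, where its log2 difference was 1.03 (SE 0.058, adjusted p = 6.47e-14). In the same libraries 8 of 9 interferon-stimulated genes rose and none fell, against 30.9% and 35.2% of all features, with a median of 2.81, among them IFIT1 at 6.75, OASL at 6.54 and IFIT3 at 6.45. With siPARP2-A, where WARS rose by 0.49, 0 of the 9 rose and 2 fell, and with siPARP1-B, where WARS rose by 0.38, 0 rose and 2 fell. With siPARP1-A, where WARS was at 0.10 (adjusted p = 0.155), 2 rose and 2 fell, and with UPF1069, where WARS fell by 0.18 on the log2 scale, 3 of 8 rose and 0 fell, against 10.3% and 14.0% of all features. The part of that list in the WARS values was not tested. The other large cytosolic change with siPARP2-B was that of RARS, the arginine enzyme, which rose from 286 and 271 to 446 and 455 (0.69, SE 0.053, adjusted p = 2.4e-11). QARS, the glutamine enzyme, fell from 212 and 217 to 169.5 and 172 (-0.33, SE 0.056, adjusted p = 1.74e-05) and rose by 0.17 with siPARP1-B. VARS, the valine enzyme, read 94.996 and 105 with siNC, 123 and 116 with siPARP2-A and 80.5 and 92.4 with siPARP2-B, with log2 differences of 0.26 (adjusted p = 0.00352) and -0.21 (adjusted p = 0.0118). The fall of VARS with siPARP2-B did not pass without siNC replicate 2 or without siPARP2-B replicate 1, at -0.14 and -0.11, nor with DESeq2, and it was -0.045 (adjusted p = 0.447) with GC content and length corrected. The VARS rise with siPARP2-A did not pass without siNC replicate 1 (0.19) or siPARP2-A replicate 1 (0.21), and the QARS rise with siPARP1-B did not pass without siNC replicate 1 or siPARP1-B replicate 1.

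The enzymes of the multisynthetase complex did not move as a block. Of the 8, 5, 4, 6 and 6 rose and 2, 0, 0 and 1 fell with siPARP1-A, siPARP1-B, siPARP2-A and siPARP2-B. The scaffold AIMP1 rose with every siRNA, by 0.33, 0.24, 0.73 and 0.70. AIMP2 also rose with every siRNA, most with siPARP2-B, from 37.3 and 40.1 to 84.8 and 88.9 (1.15, SE 0.077, adjusted p = 1.94e-12), but its rise with siPARP1-A did not pass without siNC replicate 1 or either siPARP1-A library, and that with siPARP1-B did not pass without siNC replicate 1 or siPARP1-B replicate 2. EEF1E1 rose with siPARP2-A by 0.52 and changed by -0.59 with siPARP2-B, a fall. HARS, the histidine enzyme outside the complex, rose by 0.18 and 0.13 with the PARP2 siRNAs and shares a head-to-head start region with HARS2. The first of these rises did not pass without siNC replicate 1 or siPARP2-A replicate 2, and the second did not pass when any 1 of the 10 libraries was left out.

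Among mitochondrial enzymes the largest change was the fall of IARS2 (ENSG00000067704, chromosome 1, 220094102 to 220148041 on the plus strand) with siPARP2-B. IARS2 read 337 and 310.3 with siNC, 329 and 331 with siPARP1-A, 345 and 369.6 with siPARP1-B, 347 and 353 with siPARP2-A and 129 and 119 with siPARP2-B. Its siPARP2-B libraries were 2.60-fold lower than control, a log2 difference of -1.38 (SE 0.059, adjusted p = 2.05e-16), and lay below all other 8 libraries, while siPARP2-A differed by 0.11 (adjusted p = 0.112). RARS2, the mitochondrial arginine enzyme, fell from 64.3 and 66.04 to 47.1 and 55.7 with siPARP1-A, 54.1 and 50.8 with siPARP2-A and 46.7 and 42.2 with siPARP2-B (-0.34, -0.31 and -0.55). Without siPARP1-A replicate 1 the first of these was -0.22.

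MARS2, the mitochondrial methionine enzyme, rose with every siRNA. Its libraries read 57.7 and 52.8 with siNC, 68.6 and 69.5 with siPARP1-A, 67.1 and 66.4 with siPARP1-B, 79.8 and 88.3 with siPARP2-A and 89.5 and 88.7 with siPARP2-B, and its log2 differences were 0.32 (SE 0.067, adjusted p = 0.000308), 0.27 (SE 0.067, adjusted p = 0.00247), 0.60 (SE 0.067, adjusted p = 8.17e-08) and 0.68 (SE 0.067, adjusted p = 2.56e-09). No knockdown library of MARS2 overlapped the controls. PARS2, the low-abundance proline enzyme, read 8.70 and 9.19 with siNC, 11.3 and 11.6 with siPARP1-A, 6.99 and 6.49 with siPARP1-B, 10.9 and 9.004 with siPARP2-A and 18.9 and 18.3 with siPARP2-B. It rose with siPARP2-B (0.98, SE 0.12, adjusted p = 5.2e-08), and its rise with siPARP1-A (0.32, adjusted p = 0.02) and fall with siPARP1-B (-0.36, adjusted p = 0.0145) did not pass with DESeq2 or without single libraries of the comparison. Without siNC replicate 1, siPARP1-A replicate 1 or siPARP1-A replicate 2 the first was 0.29, 0.34 or 0.31, and without siNC replicate 2 or siPARP1-B replicate 2 the second was -0.33 or -0.31.

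The remaining mitochondrial calls were smaller. HARS2 rose from 73.9 and 79.1 to 105 and 101 with siPARP1-A (0.43) and to 95.05 and 100.4 with siPARP2-A (0.35), and NARS2, the asparagine enzyme, from 39.1 and 40.6 to 51.3 and 48.5 with siPARP1-B (0.32) and 55.96 and 49.96 with siPARP2-A (0.40). TARS2 rose with the PARP2 siRNAs from 46.4 and 54.1 to 66.7 and 64.4 with siPARP2-A and 62.4 and 63.3 with siPARP2-B, and the rise with siPARP2-B was 0.32, or 0.21 without siNC replicate 1. EARS2, the glutamate enzyme, rose by 0.16 with siPARP1-A and 0.16 with siPARP2-A, and both calls were lost without siNC replicate 1 (0.10 and 0.094) and without either library of the siRNA concerned, and the second also with edgeR, with DESeq2, with no filter, with only the groups compared and without either siPARP1-A library. YARS2 rose from 58.96 and 55.7 to 76.8 and 73.3 with siPARP2-B, and FARS2 from 17.4 and 19.6 to 26.4 and 21.8, a call (0.36, adjusted p = 0.00507) that did not pass without siNC replicate 1 or siPARP2-B replicate 1. LARS2 fell with siPARP2-B from 70.5 and 74.8 to 63.05 and 60.9 (-0.23). CARS2 read 67.9 and 75.97 with siNC, 59.1 and 62.5 with siPARP1-B and 64.2 and 62.97 with siPARP2-A, falls with log2 differences of -0.24 and -0.17. Neither fall passed without siNC replicate 2, the first did not pass without siPARP1-B replicate 1, and the second did not pass without either siPARP2-A library, with DESeq2, with only the groups compared or with GC content and length corrected (-0.094). VARS2, whose exons share 21.99% of their bases with GTF2H4, rose with siPARP1-A (0.24) and fell with siPARP1-B (-0.28), and neither call passed when 1 library was left out (siPARP1-A replicate 1, 0.19, and siPARP1-B replicate 2, -0.24). AARS2 and WARS2 did not pass with any siRNA.

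The siRNAs aimed at 1 target differed at a large share of all features when compared directly, synthetases among them. Between siPARP1-B and siPARP1-A, 10 cytosolic enzymes were higher and 3 lower with siPARP1-B, and of the mitochondrial enzymes 1 was higher and 6 were lower, against 54.8% of all features called either way (26.5% higher and 28.4% lower). The largest of these differences were NARS (0.92, 95% interval 0.81 to 1.02), PARS2 (-0.69, 95% interval -0.92 to -0.45), KARS (0.58, 95% interval 0.47 to 0.69) and TARS (0.58, 95% interval 0.47 to 0.68). Between siPARP2-B and siPARP2-A, 7 cytosolic enzymes were higher and 8 lower with siPARP2-B, and 4 mitochondrial enzymes higher and 7 lower, against 64.8% of all features (30.6% higher and 34.3% lower). IARS2 (-1.49, 95% interval -1.61 to -1.37) and PARS2 (0.84, 95% interval 0.61 to 1.08) differed most, and WARS differed most of the cytosolic enzymes (0.54, 95% interval 0.42 to 0.66). In all, 20 and 26 of the 36 synthetases tested were called in these comparisons. The first count is close to the share of all features and the second little above it, so such differences were not particular to synthetases.

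With the mean of the PARP2 siRNAs set against the mean of the PARP1 siRNAs, 14 of 20 cytosolic enzymes were higher and 2 lower, and 5 of 16 mitochondrial enzymes higher and 4 lower. Among all features 33.3% were higher and 32.2% lower (65.5% in all). NARS (0.65, 95% interval 0.57 to 0.72), KARS (0.56, 95% interval 0.48 to 0.63), WARS (0.52, 95% interval 0.44 to 0.61) and RARS (0.41, 95% interval 0.34 to 0.49) were higher with the PARP2 siRNAs, and IARS2 (-0.72, 95% interval -0.80 to -0.63) was lower. For NARS and KARS the siPARP1-A libraries were the lowest of the arm, and for IARS2 the siPARP2-B libraries were. For WARS the siPARP2-B libraries were the highest of the arm, and those of siPARP2-A lay only a little above those of siPARP1-B. Since siPARP2-B also lowered PARP1, its libraries do not separate the targets. Each of the other siRNAs also lowered the transcript of the other target, by less, as given above.

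In the inhibitor arm the changes were smaller, and the cytosolic set was lower with UPF1069. Of the 20 cytosolic enzymes, 13 fell and 1 rose with UPF1069, while 14.0% of all features fell and 10.3% rose (24.3% in all). The mitochondrial set had 1 fall and 0 rises among 17 with limma; edgeR and DESeq2 also gave 0 rises, and 1 member was higher at an unadjusted p below 0.05. The median log2 difference was -0.14 for cytosolic, -0.025 for mitochondrial enzymes and -0.018 for all features. The summed cytosolic level was 5881 and 5890 CPM with DMSO and 5277 and 5315 with UPF1069, and the mitochondrial one 1180 and 1181 against 1128 and 1144. Without DMSO replicate 1, or without either UPF1069 library, 9 of the 14 cytosolic calls remained with their direction and no other was made. The mitochondrial count was 0 without DMSO replicate 1 or UPF1069 replicate 1, and 6 without either veliparib library, which enters the shared estimate of the spread. Structural RNAs were also higher in these UPF1069 libraries, as given above.

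CARS fell most with UPF1069, from 98.4 and 99.98 CPM with DMSO to 74.3 and 71.99 (-0.43, SE 0.045, adjusted p = 2.57e-07), or 1.35-fold lower. MARS read 283 and 283 with DMSO and 222 and 221 with UPF1069 (-0.35, SE 0.048, adjusted p = 9.56e-06), and GARS read 344 and 346 with DMSO and 270.5 and 277 with UPF1069 (-0.33, SE 0.035, adjusted p = 3.34e-07). YARS read 222 and 226 with DMSO and 179 and 182 with UPF1069 (-0.31, SE 0.040, adjusted p = 6.2e-06). For these 4 genes both UPF1069 libraries lay below all DMSO and olaparib libraries. TARS (-0.27) and IARS (-0.22) followed, and AARS, EPRS, FARSB, LARS, NARS, VARS and WARS fell by less, with log2 differences of -0.18 to -0.11. Of these, AARS and LARS did not pass with edgeR, DESeq2 or RLE size factors, FARSB, AARS and LARS did not pass without any 1 of the 4 libraries compared, and VARS did not pass without DMSO replicate 1 or either UPF1069 library. In all 11 of the 12 ATF4-list genes fell, with a median of -0.20, against 2 of the other 8. CARS, MARS, GARS, TARS and IARS are among the genes whose promoter letters are shown above. The only rise was that of QARS, from 273 and 282 to 307 and 305 (0.14, adjusted p = 0.0111), which did not pass without DMSO replicate 1 or either UPF1069 library (0.12, 0.14 and 0.15). Among mitochondrial enzymes LARS2 alone fell, from 108 and 106 to 94.3 and 96.6 (-0.16, adjusted p = 0.008), and did not pass without DMSO replicate 1 or UPF1069 replicate 1.

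**Figure D3:**
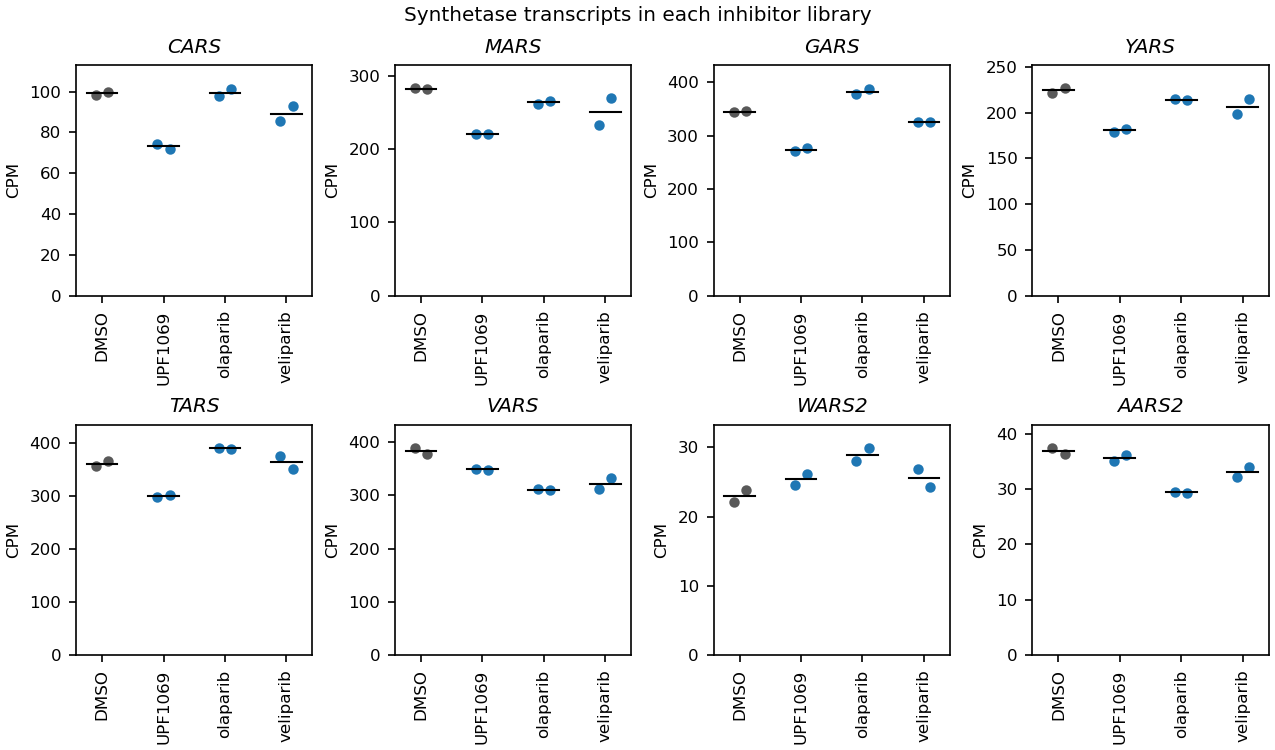
CPM of 8 synthetase transcripts in each of the 8 inhibitor libraries; points are libraries, bars are the means of 2, DMSO is grey and the inhibitors blue. CARS, MARS, GARS, YARS and TARS are lowest with UPF1069, VARS and AARS2 have their lowest means with olaparib, and WARS2 its highest with olaparib.

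Olaparib, which has a phthalazinone core, changed synthetases in both directions. Of the cytosolic enzymes 6 rose and 4 fell, and of the mitochondrial 2 rose and 4 fell, while 25.8% of all features rose and 26.8% fell (52.5% in all), so the share of synthetases called was below that background. VARS fell from 390.1 and 377 to 312 and 310.4 (-0.30, SE 0.038, adjusted p = 6.6e-07), with both olaparib libraries below both DMSO libraries. FARSA fell from 289 and 288 to 255 and 247 (-0.20) and FARSB from 174 and 178 to 156 and 157 (-0.17), so both phenylalanine subunits were lower here. IARS changed by -0.13, a fall. SARS rose from 305 and 300.1 to 332 and 340.3 (0.15), GARS to 379 and 387 (0.15) and EPRS from 487 and 476 to 521 and 546 (0.15). NARS (0.11) and TARS (0.11) rose by less. WARS rose by 0.11, a call lost without any 1 of the 4 libraries compared, and EPRS was lost without olaparib replicate 2 (0.11). NARS was lost without either DMSO library or olaparib replicate 1, and TARS without DMSO replicate 1 or either olaparib library.

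Mitochondrial WARS2 rose with olaparib from 22.1 and 23.9 to 28.02 and 29.9 (0.32, SE 0.066, adjusted p = 0.000277). AARS2, the alanine enzyme, fell from 37.5 and 36.4 to 29.5 and 29.3 (-0.32, SE 0.054, adjusted p = 3.17e-05), and YARS2 from 48.5 and 49.8 to 41.5 and 41.5 (-0.24). These 3 had no overlap with DMSO, a description given without the share of all features. IARS2 (0.12, adjusted p = 0.0123), CARS2 (-0.12, adjusted p = 0.0267) and TARS2 (-0.11, adjusted p = 0.0409) were called too. IARS2 did not pass without DMSO replicate 1 or olaparib replicate 2, and CARS2 and TARS2 did not pass with DESeq2. CARS2 was -0.055 and TARS2 -0.055 with GC content and length corrected, and neither passed. CARS2 also did not pass without either DMSO library or olaparib replicate 1, and TARS2 did not pass in 11 of the 16 alternatives, among them those without any 1 of the 4 libraries compared. Without DMSO replicate 1 the 6 mitochondrial calls became 3.

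Veliparib, a benzimidazole carboxamide, gave 2 cytosolic rises and 7 falls, and 0 mitochondrial rises and 3 falls, against 17.2% of all features higher and 23.2% lower (40.4% in all). Across 13075 genes, the log2 difference of veliparib ran with the GC content of the exons (Spearman's rho -0.689, across genes, which are not replicates), against 0.107 with UPF1069 and -0.118 with olaparib. The leading falls were in GC-rich transcripts: FARSA with 60.3% GC read 289 and 288 with DMSO and 225 and 249.7 with veliparib (-0.28, SE 0.043, adjusted p = 1.63e-05), and VARS with 62.6% GC read 390.1 and 377 with DMSO and 312 and 332 with veliparib (-0.25, SE 0.038, adjusted p = 1.72e-05). VARS2 with 59.3% GC read 103 and 101 with DMSO and 84.5 and 89.9 with veliparib (-0.22, SE 0.044, adjusted p = 0.000323). With GC content and length corrected none of these 3 passed, and VARS turned to 0.037. AARS2 (-0.15, adjusted p = 0.0265) turned to 0.061. The 9 cytosolic calls became 3 in that fit, 2 of them higher and 1 lower, of which 2 were among the 9, and edgeR on the recovered reads gave 6 higher and 5 lower. No mitochondrial enzyme rose with limma or DESeq2, 1 rose with edgeR and 1 was higher at an unadjusted p below 0.05. Leaving out either DMSO library gave 5 cytosolic and 1 mitochondrial calls, and leaving out veliparib replicate 2 gave 7 mitochondrial calls.

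EPRS rose with veliparib from 487 and 476 to 546 and 530.2 (0.16, SE 0.037, adjusted p = 0.00143), or by 0.076 (adjusted p = 0.0469) with GC content and length corrected. MARS (-0.17, adjusted p = 0.00577) and CARS (-0.15, adjusted p = 0.00966) fell, but neither passed without veliparib replicate 1 (-0.069 and -0.096), and CARS did not pass without DMSO replicate 2. MARS was -0.069 (adjusted p = 0.156) with GC content and length corrected. RARS (0.11, adjusted p = 0.035) and MARS2 (-0.13, adjusted p = 0.027) were near the threshold and did not pass without either DMSO library or veliparib replicate 1. RARS was 0.035 (adjusted p = 0.449) in the corrected fit, and MARS2 did not pass with edgeR or DESeq2. AARS (-0.11), SARS (-0.13) and YARS (-0.12) were the other falls, at -0.015, -0.070 and 0.025 in the corrected fit, where none passed. The summed cytosolic level was 5712 and 5830 CPM with veliparib and 5911 and 5954 with olaparib, against 5881 and 5890 with DMSO. The cytosolic medians, 0.011 with olaparib and -0.0022 with veliparib, changed sign with the processing, from -0.0011 to 0.049 and from -0.026 to 0.017. DARS, HARS and KARS, and the mitochondrial EARS2, FARS2, HARS2, NARS2, PARS2, RARS2 and SARS2, did not pass with any compound.

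The compounds were compared directly at 10 µM and 24 h in 3 pairs, each adjusted over all features. UPF1069 against olaparib gave 2 cytosolic enzymes higher and 11 lower with UPF1069, and 1 mitochondrial higher and 6 lower, against 51.2% of all features called either way (24.2% higher and 27.0% lower). Over all 37, 3 were higher and 17 lower, and edgeR on the recovered reads gave 8 and 13. GARS (-0.48, 95% interval -0.56 to -0.41), CARS (-0.44, 95% interval -0.53 to -0.34), TARS (-0.38, 95% interval -0.46 to -0.30) and EPRS (-0.32, 95% interval -0.40 to -0.24) differed most, all lower with UPF1069. AARS2 (0.27, 95% interval 0.16 to 0.38) was higher with UPF1069. UPF1069 against veliparib gave 2 cytosolic enzymes higher and 13 lower with UPF1069, and 2 mitochondrial higher and 2 lower, against 50.8% of all features (25.9% higher and 24.9% lower). Here EPRS (-0.33, 95% interval -0.41 to -0.26), IARS (-0.29, 95% interval -0.37 to -0.22) and CARS (-0.28, 95% interval -0.38 to -0.19) led. With GC content and length corrected the 4 higher and 15 lower calls of this pair became 0 and 17, FARSA turned from 0.17 to -0.076 and VARS from 0.11 to -0.19, both past the threshold on the other side, and RARS and VARS2 turned to 0.011 and -0.064 and were lost.

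Olaparib and veliparib, the pair with a named difference in ring system, differed at 6 cytosolic enzymes higher and 3 lower with olaparib, and at 2 mitochondrial higher and 1 lower, against 59.5% of all features called (31.7% higher and 27.7% lower). SARS (0.28, 95% interval 0.20 to 0.36), VARS2 (0.24, 95% interval 0.15 to 0.33) and GARS (0.23, 95% interval 0.16 to 0.31) were higher with olaparib, and FARSB (-0.24, 95% interval -0.32 to -0.16) and IARS (-0.20, 95% interval -0.27 to -0.13) lower. FARSA (0.083, 95% interval -0.0050 to 0.17), VARS (-0.051, 95% interval -0.13 to 0.028) and EPRS (-0.013, 95% interval -0.090 to 0.063) did not pass on the main scale. With GC content and length corrected all 3 passed, FARSA at -0.11 (95% interval -0.17 to -0.049, adjusted p = 0.00234), VARS at -0.26 (95% interval -0.32 to -0.20, adjusted p = 3.28e-09) and EPRS at 0.088 (95% interval 0.032 to 0.14, adjusted p = 0.00715), so the main intervals do not bound these differences. In that fit the 8 higher and 4 lower calls became 12 and 9, VARS2 was 0.13, FARSB -0.16 and IARS -0.11, and edgeR gave 7 higher and 8 lower where the main counts were 8 and 4. Members past the threshold in opposite directions with 2 compounds were EPRS, GARS, NARS, TARS and WARS, which fell with UPF1069 and rose with olaparib, and SARS, which rose with olaparib and fell with veliparib. EPRS rose with veliparib too. The olaparib rises of EPRS, NARS, TARS and WARS were lost when single libraries were left out, as given above. The SARS fall did not pass with GC content and length corrected.

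The amino acid stress list of 28 genes, which holds ATF4, its targets in serine synthesis and transport, and no synthetase, was read beside the family. With UPF1069 2 of the 28 rose and 22 fell (median -0.32), among them CHAC1, a glutathione-degrading enzyme, at -0.78, the leucine transporter SLC7A5 at -0.72 and the cystine transporter SLC7A11 at -0.68. With olaparib 11 rose and 7 fell (median 0.046), and with veliparib 0 rose and 23 fell (median -0.23). Of all features, 10.3% rose and 14.0% fell with UPF1069, 25.8% and 26.8% with olaparib, and 17.2% and 23.2% with veliparib. With veliparib the median of all 20 cytosolic synthetases was -0.0022, the 12 on the ATF4 list had 1 rise and 5 falls (median -0.061), and the 12 outside the complex had 0 rises and 6 falls (median -0.10). With GC content and length corrected, 0 of the stress list rose and 24 fell (median -0.18), the ATF4-list synthetases had 1 rise and 1 fall (median -0.036), and those outside the complex 0 rises and 1 fall (median -0.0092). With the siRNAs, 13, 22, 16 and 19 rose and 10, 1, 5 and 6 fell, with medians of 0.029, 0.39, 0.23 and 0.65 in the order siPARP1-A, siPARP1-B, siPARP2-A and siPARP2-B. In the same order, 25.5%, 16.4%, 24.5% and 30.9% of all features rose and 28.9%, 23.9%, 24.9% and 35.2% fell. SHMT2, the mitochondrial serine hydroxymethyltransferase, rose with each (1.43, 1.91, 1.72 and 0.74), as did PHGDH, the first enzyme of serine synthesis (1.28, 1.30, 1.18 and 0.89). The ATF4 transcript itself fell with siPARP1-A (-1.23) and siPARP2-A (-0.37), rose with siPARP1-B (0.37) and was at -0.073 (adjusted p = 0.299) with siPARP2-B. Its activity is largely set by translation, which these data do not measure.

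**Figure D4:**
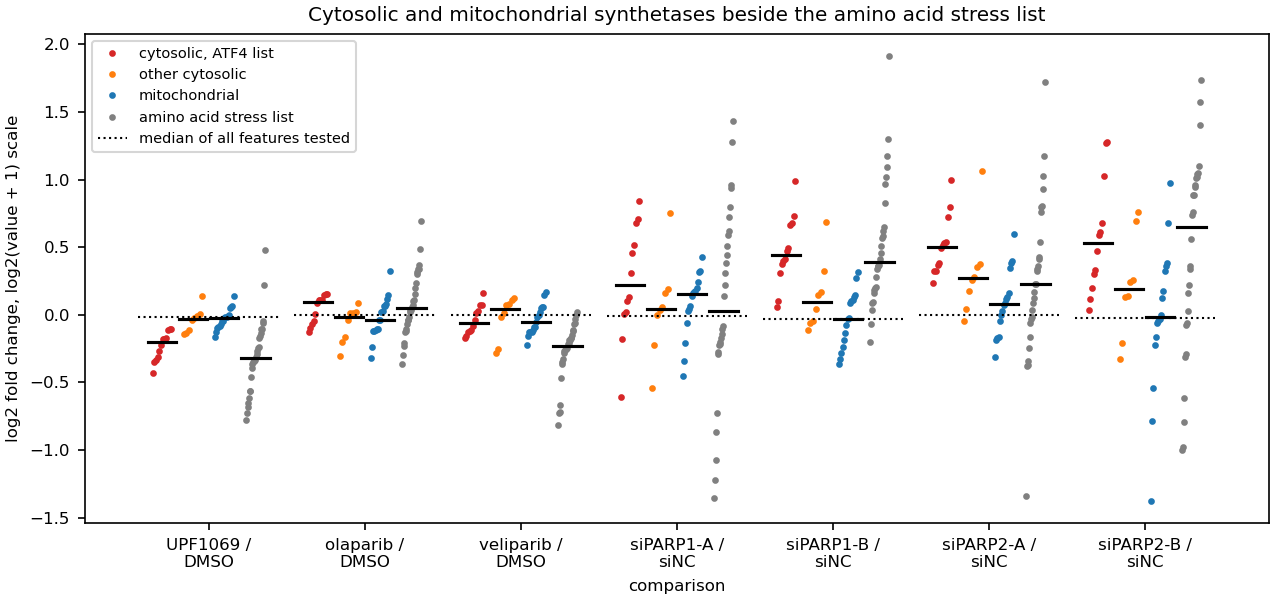
Log2 difference from control of each gene, on the log2(value + 1) scale, for the 7 comparisons; points are genes, bars are list medians and dotted lines the median of all features tested. The cytosolic ATF4-list medians lie at -0.20 with UPF1069 and between 0.22 and 0.53 with the siRNAs, and the mitochondrial medians lie between -0.050 and 0.15 throughout.

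Other charging and translation genes gave a mixed picture. TARSL2, a cytosolic relative of TARS outside the symbol rule, rose with olaparib from 24.9 and 26.4 to 47.4 and 44.3 (0.81, SE 0.058, adjusted p = 7.98e-11) and fell with siPARP2-B from 36.8 and 34.2 to 18.8 and 14.03 (-1.08, SE 0.10, adjusted p = 8.83e-10). Of 14 tRNA maturation genes, 6 rose and 0 fell with siPARP2-A, and 6 rose and 4 fell with siPARP2-B, against 49.4% and 66.1% of all features called either way. The mitochondrial elongation factor TUFM, which delivers charged tRNAs to the mitochondrial ribosome, rose with siPARP2-A (0.59) and siPARP2-B (0.50), and 6 and 5 of 10 mitochondrial translation factors rose while 1 and 3 fell. The cytosolic factor EEF1A1, its counterpart in the cytosol, rose with UPF1069 (0.17) and fell with siPARP2-B (-0.54), opposite in each case to the direction of most cytosolic synthetases, although its rise with UPF1069 did not pass without any 1 of the 4 libraries compared or with no filter.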

How the data were processed

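RNA of 18 LNCaP libraries in 9 groups of 2 had been sequenced. Per the submitters' processing notes, the tools were TopHat2 2.1.0, HTSeq 0.6.1, bcl2fastq 2.18 and edgeR 3.12.0, with build hg19 and no roles given. The authors deposited CPM for the inhibitor arm and a normalised read signal, read counts over a scaled library size, for the siRNA arm. In both, 100% of values above 0 came within 0.01 of a whole read, so reads were recovered for alternatives. Features with a mean of at least 1 were tested (13337 and 12701) with limma 3.58.1 (trend) on log2(value + 1), all groups of a table in 1 fit, 2-sided, with Benjamini-Hochberg adjustment over all features; fold changes of low genes are understated on this scale. In that fit each feature had 4 residual and 17.64 prior degrees of freedom in the inhibitor arm, and 5 and 19.03 in the siRNA arm. The script was tested on simulated data. Alternatives, run for every count of calls and every gene named, were edgeR 4.0.16 and DESeq2 1.42.0 on recovered reads, RLE size factors, a smaller pseudocount, no filter, only the groups compared, the replicate block, GC content with length (values for 98.0% and 98.2% of features) and each library left out. Gene coordinates and exon lengths were from GENCODE v29 (GRCh38), and promoter letters from RefSeq (GRCh38.p14), not from the build used for counting. Named were up to 4 called members in each direction, set and comparison with a control, those called alike or in opposite directions by the siRNAs of a target or by inhibitors, and up to 4 genes of other lists. The members and lists were chosen with earlier results of these data known. 1 mitochondrial enzyme is included in the counts and medians but is not reported here by name.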

Additional observations from a re-analysis of the deposited data

Results flagged for a closer look

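For 6 synthetases the siRNAs of 1 target moved the transcript in opposite directions, each past the threshold against siNC, and the siRNAs also differed when compared directly with limma. Between siPARP1-B and siPARP1-A the log2 difference was 0.92 (SE 0.052, adjusted p = 1.97e-13) for NARS, 0.58 (SE 0.052, adjusted p = 1.06e-09) for TARS and 0.37 (SE 0.057, adjusted p = 5.61e-06) for DARS, all higher with siPARP1-B. It was -0.69 (SE 0.12, adjusted p = 1.83e-05) for PARS2 and -0.52 (SE 0.078, adjusted p = 3.91e-06) for VARS2, both lower with siPARP1-B. Between siPARP2-B and siPARP2-A it was -0.47 (SE 0.070, adjusted p = 2.53e-06) for VARS. The calls of PARS2, VARS2 and, with siPARP2-B, VARS against siNC were lost when single libraries were left out, as given above, as was the rise of DARS with siPARP1-B. VARS with siPARP2-B was -0.045 (adjusted p = 0.447) with GC content and length corrected, so its opposite direction did not hold in that fit. With 2 libraries a group, no check for a sample standing apart within a group was made.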

How the results depend on the processing

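Of the counts of called synthetases under alternatives, 317 stayed within 1.5 times the main count and 25 did not. Mitochondrial calls with UPF1069 were 6 with only the groups compared and 3 with GC content and length corrected, against 1. With veliparib, cytosolic calls were 5 and 3 in those fits, against 9, and mitochondrial calls were 1 with only the groups compared and 1 with DESeq2, against 3. With GC content and length corrected, mitochondrial calls with siPARP1-B were 10 against 6, those with olaparib 7 higher and 2 lower against 2 and 4, and calls between olaparib and veliparib 21 against 12. In that fit AARS2, VARS and YARS reversed to 0.061, 0.037 and 0.025 with veliparib, AARS, AARS2, FARSA, RARS, VARS and VARS2 to -0.085, -0.12, -0.076, 0.011, -0.19 and -0.064 between UPF1069 and veliparib, and EPRS and FARSA to 0.088 and -0.11 between olaparib and veliparib. RLE size factors gave 3 higher and 3 lower mitochondrial calls with olaparib, and edgeR gave 1 and 2 with veliparib. Leaving out 1 library at a time gave 9 to 16 cytosolic and 0 to 6 mitochondrial calls with UPF1069, 7 to 14 and 3 to 9 with olaparib, 5 to 13 and 1 to 7 with veliparib, 12 to 13 and 4 to 9 with siPARP1-A, 12 to 14 and 4 to 7 with siPARP1-B, 16 to 18 and 5 to 8 with siPARP2-A, and 15 to 17 and 8 to 10 with siPARP2-B. A group left with 1 library was assumed to vary like the others. Replicate numbers did not pair the libraries (correlations of their deviations from -0.14 to 0.11), and with the replicate block the cytosolic and mitochondrial calls were 13 and 1 with UPF1069, 10 and 5 with olaparib, 9 and 3 with veliparib, 12 and 7 with siPARP1-A, 13 and 6 with siPARP1-B, 18 and 8 with siPARP2-A, and 17 and 10 with siPARP2-B. Over the 260 member changes called in any comparison, 4148 single values under an alternative kept the call and its direction, 337 lost the call with their direction and 7 reversed, and over the 214 not called 206 gained a call and 4 took one in the other direction. For other genes named, 1326 values kept a call and 74 lost it. Of the counts of other lists, 2738 stayed within 1.5 times and 244 did not. An edgeR main test did not apply, so its limma alternative was not run. The cause of these shifts was not tested. Precision is limited by 2 libraries a group.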
